A study of Homo sapiens with 12 samples.

Results

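The genes described here are the 19 genes of the ATF4 stress programme and 13 genes of tRNA charging and export (charging genes), chosen by symbol: ATF4, DDIT3, CEBPB, CEBPG, ATF5, TRIB3, CHAC1, NUPR1, STC2, VLDLR, ASNS, PSAT1, PHGDH, PSPH, ALDH1L2, SLC7A11, SLC3A2, SLC7A5 and SLC1A5, then AARS, CARS, EPRS, GARS, IARS, LARS, MARS, NARS, SARS, TARS, WARS, YARS and XPOT. All 32 were found among the 57905 genes of the count tables, and 29 of them were measured, meaning that they reached 10 CPM (UMIs of the gene per 1000000 human UMIs of the library) in at least 1 library, as did 7980 genes in all. The labels set induced RUNX1, a blood transcription factor, against a control in Nalm-6, an established leukemia line of human B-cell precursors. Single-cell RNA-seq gave 1 library per group. The library labelled RUNX1 came from cells carrying a Tet-On pLVX construct with RUNX1 cDNA, kept in 500 ng/ml doxycycline for 72 h. The control library carries the labels empty vector and 72 h. However, DMSO stands in its title and doxycycline in none of its labels. The paper's supplement also lists the Nalm-6 single-cell data of this series as DMSO. In the paper's methods DMSO is the control of a drug treatment of Nalm-6 cells that was shorter than 72 h. Effects of vector, inducer, culture and time therefore cannot be told apart from that of the RUNX1 label. Dead cells were depleted, and lanes were loaded with mixtures of human and mouse cells. The 10 ChIP-seq samples were not used here.

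ATF4 is a transcription factor whose mRNA is translated when kinases that sense stress or missing amino acids phosphorylate the initiation factor eIF2, while most other mRNAs are translated less. ATF4 then switches on genes for amino acid synthesis, amino acid uptake and the charging of tRNAs, and, with DDIT3, genes that can end in cell death. Since ATF4 is controlled largely at translation, the level of its mRNA is not a measure of the amount of protein. Aminoacyl-tRNA synthetases join each amino acid to its tRNA and fall into 2 unrelated structural classes, I and II, and fast-growing cells need them in quantity.

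Many ATF4 target genes carry a C/EBP-ATF composite site, at which ATF4 binds together with a C/EBP protein. The core of this site, TGATGNAA with N any base, was sought on both strands in RefSeq promoter windows of 300 bases (250 before and 50 after a gene's start, GRCh38.p14). Of the 26 members with a window 12 held it, 46.2%, against 1217 of 27305 genes with a window, 4.46%, and 158 of 6090 measured genes, 2.59%. The list was put together from genes known as ATF4 targets, so this share describes the list. The sites of members with low ratios between the libraries (CHAC1, CEBPG, SLC1A5, GARS, AARS) and of members whose ratios lay near 0 (ASNS, CARS, MARS) are shown as 28 bases 5′ to 3′ on the strand of the gene, with the core in capitals. Cores reading TTNCATCA lie on the opposite strand.
CHAC1, chr15:40953252-40953279: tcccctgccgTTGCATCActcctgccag
CEBPG, chr19:33374061-33374088: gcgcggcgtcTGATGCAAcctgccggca
SLC1A5, chr19:46784894-46784921: aggaagtggcTGATGCAAgctgtccagg
GARS, chr7:30594835-30594862: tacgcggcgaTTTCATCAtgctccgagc
AARS, chr16:70289676-70289703: tttctcgcagTTGCATCAgccaagttag
ASNS, chr7:97872459-97872486: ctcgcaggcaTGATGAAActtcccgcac
CARS, chr11:3057408-3057435: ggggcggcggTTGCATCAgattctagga
MARS, chr12:57488054-57488081: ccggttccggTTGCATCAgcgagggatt
IARS, NARS, TARS and SLC3A2 held the core as well. The 12 members with it had log2 ratios from -1.39 to 0.01, so members from the lowest ratio to one near 0 carried these letters, and a match is no evidence that a factor binds there.

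The RUNX1 transcript was lower in the library that bears its name. RUNX1 (ENSG00000159216) had 2288 UMIs (30.4 CPM) in the library labelled RUNX1, against 5282 UMIs (69.7 CPM) in the control, a log2 ratio of -1.20 (-1.27 to -1.13). The sources used here do not say if the construct includes the 3′ end of the transcript, which this assay reads. These counts cannot tell an exchange of the labels apart from such a gap combined with less of the cells' own RUNX1 transcript. An exchange would turn the sign of every ratio between the libraries given below. Ratios between the libraries always have the library labelled RUNX1 on top. The files held 5491 and 6073 barcodes, of which 4800 cells of the library labelled RUNX1 and 5598 control cells passed the filter, with 75350615 and 75754137 UMIs. Passing cells of both libraries shared 10 barcodes. Mitochondrial UMIs made up 13.1% of the library labelled RUNX1 and 9.45% of the control, and ribosomal protein UMIs 32.4% and 27.5%. Their part in the ratios was not tested, but values with these genes left out of the totals stand beside the counts they change. All 15 B precursor markers found were at 10 CPM or more in both libraries (summed level 7242 CPM and 6383 CPM). Of 10 T and NK cell markers only NKG7 reached 10 CPM, with 21.6 CPM in the library labelled RUNX1 and 7.52 CPM in the control (all 10 summed to 31.9 and 15.3 CPM), and CD3D and CD3G had no UMI in either. Summed myeloid, erythroid and stromal markers stayed under 7 CPM in each library. A single library per group allows no test between conditions, and all intervals are exact 95% intervals that cover counting error only. Cells and genes are not replicates, and fewer cells of a state and less RNA per cell cannot be told apart in the summed values.

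Most of the programme was lower in the library labelled RUNX1, apart from DDIT3 and CEBPB. Of the 16 measured genes of the ATF4 programme, 11 were lower by a log2 ratio of 0.5 or more, where 21.4% of all measured genes were, and 2 were higher, DDIT3 and CEBPB, where 13.8% of all genes were. Of the 13 charging genes 5 were lower and 0 higher. The median log2 ratio was -0.70 for the ATF4 programme and -0.44 for the charging genes, beside -0.13 for all 7980 measured genes. Among all 29 measured members 25 had a ratio below 0, as did 4797 of the 7980 genes (60.1%), and 4 were at least 2-fold lower (CHAC1, CEBPG, SLC7A5 and SLC1A5), as were 327 of the 7980 (4.1%). With mitochondrial and ribosomal protein genes left out of the totals, 8 of 16 and 2 of 13 were lower, and the shares of all genes became 10.3% lower and 25.8% higher.

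**Figure D1:**
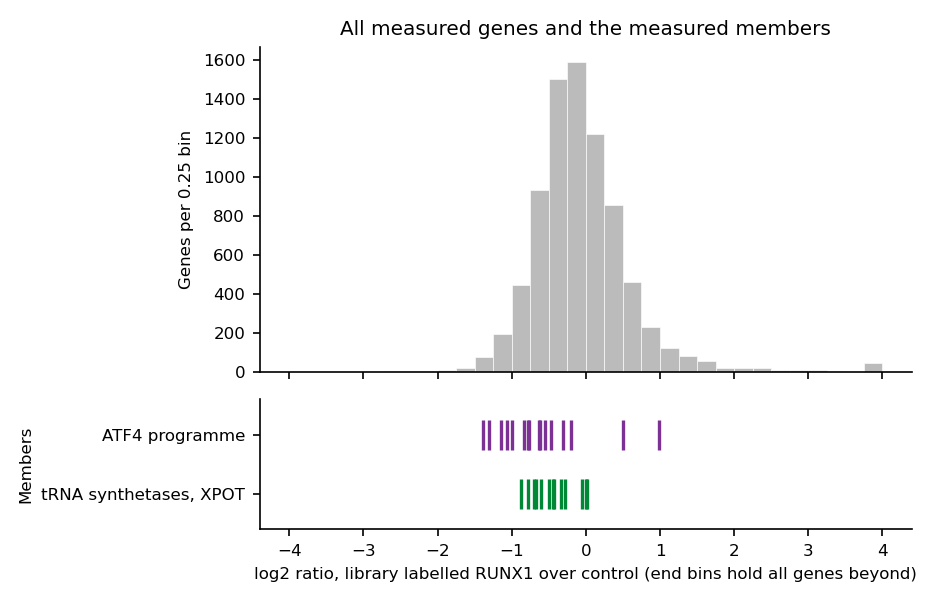
Number of measured genes (vertical axis) in each 0.25 bin of the log2 ratio, library labelled RUNX1 over control (horizontal axis, passing cells, end bins hold all genes beyond), above tick marks for the 16 measured genes of the ATF4 programme and the 13 charging genes. The ticks run from -1.39 (CHAC1) to 0.98 (CEBPB) for the programme and from -0.87 (GARS) to 0.02 (WARS) for the charging genes, and the median of all genes is -0.13.

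The transcription factors of the programme went in both directions. ATF4 itself (ENSG00000128272; GRCh37 chromosome 22, 39915700 to 39918688) had 9974 UMIs or 132 CPM (130 to 135) in the library labelled RUNX1, against 12387 UMIs or 164 CPM (161 to 166) in the control, a log2 ratio of -0.30 (-0.34 to -0.27). Its ratio stood short of the 0.5 limit. CEBPG, the partner that forms dimers with ATF4 on composite sites (ENSG00000153879; chromosome 19, 33864591 to 33873592), had 1177 UMIs or 15.6 CPM in the library labelled RUNX1, against 2938 UMIs or 38.8 CPM in the control, and was 2.48-fold lower (log2 ratio -1.31, -1.41 to -1.21). ATF5, a relative of ATF4 whose mRNA is also under translational control, stood at 302 CPM in the library labelled RUNX1 and 419 CPM in the control (-0.47, -0.50 to -0.45).

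The remaining 2 factors were higher. CEBPB, a C/EBP factor induced in inflammation and stress (ENSG00000172216; chromosome 20, 48807367 to 48809205), had 5842 UMIs or 77.5 CPM in the library labelled RUNX1, against 2969 UMIs or 39.2 CPM in the control, 1.98-fold higher (0.98, 0.92 to 1.05). DDIT3, also called CHOP and known for promoting cell death under lasting stress, had 2510 UMIs or 33.3 CPM in the library labelled RUNX1, against 1782 UMIs or 23.5 CPM in the control (0.50, 0.41 to 0.59). That value lies just inside the limit, and with TMM scaling (factors from the bulk of genes, edgeR) it was 0.37. DDIT3 (chromosome 12, 57910371 to 57915520, minus strand) overlaps the last bases of MARS (57869228 to 57911352, plus strand). MARS had 36.7 CPM in the library labelled RUNX1 and 36.5 CPM in the control, and the part of the overlap in either count was not tested.

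The 4 measured stress effectors were all lower. CHAC1, an enzyme that degrades glutathione and is among the most sensitive readouts of ATF4 (ENSG00000128965; chromosome 15, 41245160 to 41248710), had 312 UMIs or 4.14 CPM (3.69 to 4.63) in the library labelled RUNX1, against 823 UMIs or 10.9 CPM (10.1 to 11.6) in the control. It was 2.62-fold lower (log2 ratio -1.39, -1.58 to -1.20), the lowest ratio of the 29 measured members, although it passed the 10 CPM floor only in the control. TRIB3, a pseudokinase that restrains ATF4 and DDIT3, had 33.6 CPM in the library labelled RUNX1 and 51.8 CPM in the control (-0.63, -0.70 to -0.55). STC2, a secreted glycoprotein of the stress response, had 22.9 CPM in the library labelled RUNX1, against 40.8 CPM in the control (-0.83, -0.92 to -0.74). For VLDLR, the very low density lipoprotein receptor, the levels were 28.8 CPM in the library labelled RUNX1 and 49.7 CPM in the control (-0.79, -0.86 to -0.71). NUPR1, a chromatin-associated stress factor, was almost absent, with 3 UMIs in the library labelled RUNX1, compared with 0 in the control, and no fold is given.

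The enzymes of the serine pathway, which makes serine from a glycolytic intermediate, were lower at all 3 steps. PHGDH, the first enzyme, had 9126 UMIs or 121 CPM in the library labelled RUNX1, against 15590 UMIs or 206 CPM in the control (log2 ratio -0.76, -0.80 to -0.73). PSAT1, the second, had 5356 UMIs or 71.1 CPM in the library labelled RUNX1, against 10735 UMIs or 142 CPM in the control, 1.99-fold lower (interval of the log2 ratio -1.04 to -0.95). PSPH, which releases serine, had 24.5 CPM in the library labelled RUNX1 and 35.8 CPM in the control (-0.55, -0.63 to -0.46), and near-identical pseudogene copies make its count less certain. ASNS, asparagine synthetase and a textbook ATF4 target outside the serine pathway, differed by less than these 3 enzymes. It had 1424 UMIs or 18.9 CPM in the library labelled RUNX1, against 1638 UMIs or 21.6 CPM in the control, a log2 ratio of -0.19 (-0.30 to -0.09), whose sign turned to 0.02 when mitochondrial and ribosomal protein genes were left out of the totals. ALDH1L2, a mitochondrial folate enzyme, had 4 UMIs in the library labelled RUNX1, compared with 0 in the control.

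The 3 measured amino acid transporters among the members were all lower. SLC7A5, the light chain of the carrier that brings leucine and other large neutral amino acids into the cell, had 1711 UMIs or 22.7 CPM in the library labelled RUNX1, against 3804 UMIs or 50.2 CPM in the control, 2.21-fold lower (log2 ratio -1.14, -1.23 to -1.06). SLC3A2, the heavy chain it pairs with, was lower by less, with 94.3 CPM in the library labelled RUNX1 and 145 CPM in the control (-0.62, -0.67 to -0.58). SLC1A5, which takes up glutamine, had 3908 UMIs or 51.9 CPM in the library labelled RUNX1, against 8249 UMIs or 109 CPM in the control, 2.10-fold lower (-1.07, -1.13 to -1.01). SLC7A11, the cystine carrier, was under the floor in both libraries, with 183 UMIs or 2.43 CPM in the library labelled RUNX1 and 280 UMIs or 3.70 CPM in the control. Measured amino acid carriers outside the members, read among other ATF4 target genes, went both ways. SLC38A2 (0.51, 0.46 to 0.56) and SLC38A1 (0.37, 0.33 to 0.42) were higher in the library labelled RUNX1, and SLC7A1 (-0.78) and SLC43A1 (-0.57) lower.

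Of the synthetases 4 of 5 listed under class II (80%) and 1 of 7 listed under class I (14.3%) were lower by the limit. Of all measured genes 21.4% were. GARS, which charges glycine, had 5103 UMIs or 67.7 CPM in the library labelled RUNX1, against 9404 UMIs or 124 CPM in the control (log2 ratio -0.87, -0.92 to -0.82). AARS, for alanine, had 23.5 CPM in the library labelled RUNX1 and 40.2 CPM in the control (-0.77, -0.86 to -0.69). NARS, for asparagine, had 77.5 CPM in the library labelled RUNX1 and 126 CPM in the control (-0.70, -0.74 to -0.65). These and TARS, for threonine, with 61.7 CPM in the library labelled RUNX1 and 98.3 CPM in the control (-0.67, -0.73 to -0.62), were the 4 of 5 class II genes past the limit. SARS, for serine, stood at 85.2 CPM in the library labelled RUNX1 and 115 CPM in the control (-0.43, -0.48 to -0.38).

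Among the 7 enzymes listed under class I only EPRS was past the limit, with 116 CPM in the library labelled RUNX1 and 176 CPM in the control (log2 ratio -0.60, -0.64 to -0.56). EPRS charges both glutamate and proline, and only its glutamate part is of class I. Its proline part is of class II. IARS, for isoleucine, lay just short of it, with 88.4 CPM in the library labelled RUNX1 and 125 CPM in the control (-0.50, -0.54 to -0.45). YARS, for tyrosine, had 83.8 CPM in the library labelled RUNX1 and 114 CPM in the control (-0.44, -0.49 to -0.39). The leucine enzyme LARS was at 50.7 CPM in the library labelled RUNX1, against 64.1 CPM in the control (-0.34, -0.40 to -0.28). The other 3 enzymes differed by less than their counting error, which does not cover the spread between cultures. CARS, for cysteine, had a log2 ratio of -0.05 (-0.13 to 0.02), MARS, for methionine, 0.01 (-0.07 to 0.08) and WARS, for tryptophan, which interferon also induces, 0.02 (-0.07 to 0.11). The sign of all 3 turned with the scaling. Over 10 settings CARS ran from -0.18 to 0.24, MARS from -0.12 to 0.26 and WARS from -0.11 to 0.23. XPOT, the exportin that carries tRNAs out of the nucleus, had 35.4 CPM in the library labelled RUNX1 and 42.8 CPM in the control (-0.27, -0.35 to -0.20). The median was -0.70 over the genes listed under class II and -0.34 over those listed under class I, EPRS among them. This is a description of 5 and 7 genes without a test. The cytosolic synthetases outside the members did not show such a split. Of class II, FARSB (-0.58) was past the limit, and FARSA (-0.39), KARS (-0.32), DARS (-0.27) and HARS (-0.06) were not. Of class I, RARS (-0.74) was past it, and VARS (-0.21) and QARS (-0.19) were not.

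The libraries also differed in the share of cells called G1, so the members were read within cell cycle calls. The calls come from expression alone, and no other measure of cycling was used here. With every cell thinned to 8000 UMIs, 2402 of 4188 cells of the library labelled RUNX1 were called G1, 57.4% (55.8 to 58.9, exact Clopper-Pearson), against 412 of 5185 control cells, 7.95% (7.22 to 8.72). Without thinning the shares were 61.1% and 8.34%. None of the members was among the genes used for the calls. Cells near the boundary of the calls (a score within 0.05) were 6.18% in the library labelled RUNX1, compared with 5.09% in the control. Mitochondrial UMIs made up 14.0% in G1 cells of the library labelled RUNX1 and 10.5% in those of the control, and 12.5% and 9.40% in S or G2/M cells. Their part was not tested.

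Within cells called S or G2/M (1786 cells of the library labelled RUNX1, 4773 control cells) the differences were smaller. Of the 16 programme genes 6 were lower and 1 higher (DDIT3), where 12.8% and 6.54% of all genes were, with a median log2 ratio of -0.38. Of the 13 charging genes 3 were lower and 0 higher, with a median of -0.23, beside -0.14 for all 7695 genes measured there. PHGDH showed the largest part of this narrowing among the enzymes, with 186 CPM in S or G2/M cells of the library labelled RUNX1 and 212 CPM in those of the control (-0.19, -0.23 to -0.15). CEBPB likewise differed little, at 47.4 CPM in the library labelled RUNX1 and 39.7 CPM in the control (0.26, 0.17 to 0.34). CHAC1 (-0.89), SLC7A5 (-0.79), CEBPG (-0.73), SLC1A5 (-0.64), PSAT1 (-0.63) and STC2 (-0.59) were the 6 programme genes still past the limit. The 3 charging genes past it were NARS (-0.62), AARS (-0.54) and GARS (-0.53), all of class II. ASNS (0.14, 0.02 to 0.26) and MARS (0.26, 0.17 to 0.35) were slightly higher in S or G2/M cells.

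Within cells called G1 the spread between members widened. Of 15 programme genes measured there 9 were lower and 2 higher (DDIT3 and CEBPB), where 22.3% and 19% of all genes were, with a median log2 ratio of -0.59. The 13 charging genes counted 8 lower and 0 higher, with a median of -0.54, beside -0.07 for all 7937 genes. CEBPB stood at 84.8 CPM (81.7 to 88.0) in G1 cells of the library labelled RUNX1, against 27.7 CPM (23.1 to 32.9) in those of the control (log2 ratio 1.62, 1.36 to 1.88). CEBPG went the other way, with 7.45 CPM (6.56 to 8.43) in the library labelled RUNX1 and 27.2 CPM (22.7 to 32.5) in the control (-1.87, -2.19 to -1.55). DDIT3 had 30.3 CPM in the library labelled RUNX1 and 16.6 CPM in the control (0.87, 0.54 to 1.23). ATF4 did not differ beyond counting error, with 113 CPM in the library labelled RUNX1 and 117 CPM in the control (-0.06, -0.19 to 0.08). All 5 class II synthetases were past the limit, from -0.54 (AARS, SARS) to -1.08 (GARS). The control side of these ratios rests on 412 cells, which gave CHAC1 only 24 UMIs.

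Levels also differed by cell cycle call inside each library, where vector and culture are shared. In the library labelled RUNX1, G1 cells had less PHGDH than S or G2/M cells, 59.9 CPM against 186 CPM (log2 ratio -1.63, -1.70 to -1.56), and less CEBPG, 7.45 CPM against 23.9 CPM (-1.68, -1.89 to -1.48). In the control the same comparison gave -0.75 (-0.87 to -0.63) for PHGDH and -0.54 (-0.81 to -0.28) for CEBPG. CEBPB was higher in G1 cells than in S or G2/M cells of the library labelled RUNX1 (0.84, 0.75 to 0.92) and lower in G1 cells of the control (-0.52, -0.79 to -0.26). The 16 programme genes measured in the control had ratios below 0 in every case, with a median of -0.53, and the 13 charging genes had a median of -0.18, beside -0.06 for all genes. In the library labelled RUNX1 the medians were -0.61 for 15 programme genes and -0.51 for the 13 charging genes, beside -0.01 for all genes. ATF4 was lower in G1 cells by similar amounts, -0.42 (-0.48 to -0.36) in the library labelled RUNX1 and -0.52 (-0.64 to -0.39) in the control. When the calls of the library labelled RUNX1 were weighted to the mix of the control, the medians over the members were -0.38 and -0.24. G1 calls have a weight of only 6.30% in that mix, so values close to those in S or G2/M cells follow from the weights.

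The share of cells with a UMI followed the levels. At 8000 UMIs per cell, CHAC1 was seen in 2.58% of cells of the library labelled RUNX1 (2.12 to 3.11) and 7.31% of control cells (6.62 to 8.05), or 5.38% and 11.5% without thinning. For CEBPG the thinned shares were 10.5% in the library labelled RUNX1, compared with 25.5% in the control, and for SLC7A5 14.6% and 29.7%. PHGDH, which most control cells showed, was seen in 48.6% of cells of the library labelled RUNX1 and 75.9% of control cells. CEBPB was seen in 39.1% of cells of the library labelled RUNX1, against 25.4% of control cells, and DDIT3 in 20.2% against 15.8%. NUPR1 was seen in 0 of 4188 thinned cells of the library labelled RUNX1 and in 0 of 5185 thinned control cells. The exact upper limits of these shares, at 8000 UMIs per cell, are 0.0880% and 0.0711%. Without thinning, a NUPR1 UMI lay in 0.0625% of cells in the library labelled RUNX1 and in 0% of control cells. A background share from cells that should lack these genes could not be had, since every barcode was called human.

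Members also differed in how unevenly their UMIs lay over cells. The Fano factor, the variance of the thinned counts divided by their mean, is 1 where counting alone sets the spread. ATF5 was the most uneven member, with a Fano factor of 3.60 in the library labelled RUNX1, compared with 3.31 in the control, where genes of like mean had medians of 1.20 and 1.13. CEBPB had 1.74 in the library labelled RUNX1, compared with 1.15 in the control. For DDIT3 the values were 1.39 and 1.16, and for TRIB3 1.39 and 1.50. PHGDH reached 1.64 in the library labelled RUNX1, compared with 1.31 in the control. The synthetases lay close to counting, from 1.01 (MARS, control) to 1.20 (IARS, library labelled RUNX1). ATF5 and TRIB3 were thus uneven in both libraries, and CEBPB more so in the library labelled RUNX1.

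G1 cells of the library labelled RUNX1 were not alike in the members. These cells were split, by genes chosen after their values were seen, into 257 cells with a UMI of C1orf141 or LINC00967, 957 further cells with a UMI of the chemokines CCL3 or CCL4, 451 with a UMI of the Fc receptor chain FCER1G alone and 737 with none of these. Median UMIs per cell were 11386, 11581, 12363 and 16245 in that order, and mitochondrial UMIs 14.8%, 13.3%, 13.8% and 14.5%. A share of the last cells may hold such genes below detection. CEBPB followed the split, with 174 CPM (160 to 188) in the cells with C1orf141 or LINC00967, 102 CPM (96.6 to 108) in the chemokine cells, 78.9 CPM (71.9 to 86.3) in the FCER1G cells and 45.9 CPM (42.2 to 49.8) in the cells with none. In S or G2/M cells of the same library CEBPB had 47.4 CPM.

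Of the 29 measured members 21 had their highest level in the cells with none of these UMIs, as did 2424 of the 7980 measured genes (30.4%), and 4 members had it in the cells with C1orf141 or LINC00967, as did 43.5% of all genes. The cells with none were also the deepest by median UMIs, and the part of depth was not tested. CEBPG stood there at 11.8 CPM (9.97 to 13.9), against 4.28 CPM (3.19 to 5.61) in the chemokine cells, and both lay below the 27.2 CPM of control G1 cells. SLC7A5 was lowest in the cells with C1orf141 or LINC00967, at 5.60 CPM (3.37 to 8.74), against 13.5 to 18.1 CPM in the others. GARS had 32.1 CPM in the cells with C1orf141 or LINC00967 and 62.1 CPM in the cells with none. ATF4 itself was flat, between 110 and 116 CPM in all 4. DDIT3 followed no such order, with 38.9 CPM in the cells with C1orf141 or LINC00967, 28.7 CPM in the chemokine cells, 21.5 CPM in the FCER1G cells and 33.9 CPM in the cells with none, each above the 16.6 CPM of control G1 cells.

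Genes that act upstream of ATF4 and other genes it activates were read from lists of their own. The first list held 19 measured genes for eIF2, its kinases and their regulators, its exchange factor eIF2B and its phosphatase. Of these 5 were lower (26.3%, beside the 21.4% of all measured genes) and 0 higher, with a median log2 ratio of -0.29. The lowest were PPP1CC, a phosphatase catalytic subunit (-0.74, -0.78 to -0.71), EIF2S1, the eIF2 subunit that is phosphorylated (-0.72, -0.77 to -0.67), EIF2AK2, the kinase that senses double-stranded RNA (-0.72, -0.78 to -0.65), and EIF2S2 (-0.69, -0.72 to -0.66). Of 22 other measured ATF4 target genes 10 were lower (45.5%, beside 21.4% of all genes) and 3 higher (13.6%, beside 13.8%), with a median of -0.30. VEGFA, a growth factor for blood vessels, had 4.74 CPM in the library labelled RUNX1 and 17.3 CPM in the control (-1.87, -2.04 to -1.70), and so passed the 10 CPM floor only in the control. MTHFD1L, a mitochondrial folate enzyme, had 22.1 CPM in the library labelled RUNX1 and 51.1 CPM in the control (-1.21, -1.29 to -1.13). KLHL24, an adaptor for protein degradation (1.43, 1.34 to 1.52), and TNFRSF10B, a death receptor that DDIT3 is known to induce (0.91, 0.78 to 1.05), were higher. TNFRSF10B passed the floor only in the library labelled RUNX1, with 17.3 CPM there and 9.20 CPM in the control. Within S or G2/M cells 2 of 18 measured genes of the eIF2 list (11.1%) were lower and 0 higher, with a median of -0.22. Of the 22 other target genes 7 (31.8%) were lower and 1 (4.55%) higher there, with a median of -0.29. All genes had 12.8% lower, 6.54% higher and a median of -0.14 in these cells.

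The tRNA synthetases outside the 12 members, read together with proteins of the synthetase complex, were also more often lower than higher. Of 11 other cytosolic synthetase and complex genes 5 were lower (45.5%, beside 21.4% of all genes) and 0 higher, with a median log2 ratio of -0.39. The 5 lower genes included complex proteins that are not synthetases, AIMP1, a scaffold (-0.81, -0.86 to -0.77), EEF1E1 (-0.60, -0.64 to -0.55) and AIMP2 (-0.54, -0.60 to -0.48). The synthetases among them were the arginine enzyme RARS (-0.74, -0.80 to -0.68) and FARSB (-0.58, -0.66 to -0.50). Of 11 measured mitochondrial synthetases, which are encoded by genes of their own, 4 were lower (36.4%) and 0 higher, with a median of -0.49. IARS2, for isoleucine, had 41.1 CPM in the library labelled RUNX1 and 85.6 CPM in the control (-1.06, -1.12 to -0.99), and WARS2, NARS2 and YARS2 had ratios of -0.80, -0.54 and -0.50. WARS2, with 7.56 CPM in the library labelled RUNX1 and 13.2 CPM in the control, passed the floor only in the control. The medians of these lists, -0.39 and -0.49, lie on either side of the -0.44 of the 13 charging genes. Within S or G2/M cells 2 of the 11 cytosolic genes (18.2%) and 3 of the 11 mitochondrial genes (27.3%) were lower, beside 12.8% of all genes. Their medians there were -0.24 and -0.32, beside -0.14 for all genes.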

How the data were processed

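The authors used Cell Ranger 3.0.2 with a joint reference of hg19 and mm10 to count UMIs (molecules counted once), as the labels and the paper's methods state. Raw counts per gene and barcode were deposited, without normalization. Groups came from the genotype label.

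Cells with more than 2000 and fewer than 6000 genes, mitochondrial UMIs below 20% and fewer than 500 UMIs of mouse genes were kept, which left out 691 barcodes of the library labelled RUNX1 and 475 of the control. Doublets were not removed. The UMIs of a gene, summed over passing cells, were scaled to the library total (CPM). Ratios used no pseudocount. Intervals are exact at 95% (Poisson for CPM, conditional binomial for ratios, Clopper-Pearson for shares) and cover counting error only, and the ratio script was tested on simulated data. Phases were called in scanpy 1.11.5 over both libraries together from 42 S and 54 G2/M genes in cells thinned to 8000 UMIs (612 cells of the library labelled RUNX1 and 413 control cells were too shallow and stayed out), and levels per call use all UMIs of those cells. Of the members all are accounted for, and of each further list up to 4 measured genes with the largest ratios in size are named. Measured amino acid carriers among the other ATF4 target genes are named as well, and so are all other cytosolic synthetase and complex genes. The members, lists and rules were chosen with earlier results of these data known. Genes were placed with GENCODE v44lift37 (GRCh37, the hg19 of the authors), and promoter windows came from RefSeq on GRCh38.p14, matched by symbol. CARS, EPRS and the other synthetases have names ending in 1 there. Windows were not at hand for NUPR1, PSPH, ALDH1L2, SLC7A11, LARS and YARS. Alternatives changed scaling (TMM in edgeR 4.0.16, R 4.3.3), totals, cell filter, gene floor, phase and cell weights. Scripts ran in Python 3.11.15 with scipy 1.17.1, numpy 2.4.6, pandas 2.3.3 and matplotlib 3.10.9.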

Additional observations from a re-analysis of the deposited data

How the results depend on the processing

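Of the 29 measured members 25 kept the sign of their ratio over 10 settings, and ASNS, CARS, MARS and WARS did not. No list reversed. Values below are for the ATF4 programme and then the charging genes (the 12 synthetases and XPOT), whose main medians are -0.70 and -0.44 with 11 and 5 lower. The medians were -0.82 and -0.57 with TMM factors (8 charging genes lower, 1 programme gene higher), -0.54 and -0.29 with the median of ratios, -0.48 and -0.23 (2 charging genes lower) without mitochondrial and ribosomal protein genes in the totals, and -0.55 and -0.41 in cells under 10% mitochondrial UMIs (599 cells of the library labelled RUNX1, 3651 control cells). The 3 scalings moved the median of all genes, -0.13 in the main values, to -0.26, 0.04 and 0.14, and relative to it the programme stood at -0.57 in the main values and between -0.56 and -0.62 under the scalings, and the charging genes at -0.31 and between -0.30 and -0.37. Over all barcodes the programme median was -0.71, and with equal weight per thinned cell the medians were -0.77 and -0.47, with 1 programme gene higher. With a floor of 1 CPM or of 10 CPM in both libraries the programme median was -0.63. In cells called G1 the medians were -0.59 and -0.54 (8 charging genes lower), and without thinning the median of the charging genes there was -0.64. Cells called S or G2/M gave -0.38 and -0.23, with 6 programme genes lower, 1 higher and 3 charging genes lower, and at the control phase mix -0.38 and -0.24, with 6 programme genes lower and 1 higher. Relative to the median of all genes these medians were -0.24 and -0.09 in S or G2/M cells and -0.25 and -0.10 at the control phase mix. G1 calls weigh 6.30% in that mix, so these 2 settings are alike by construction. Depth limited G1 cells of the control most, where CHAC1 had 24 UMIs and a ratio between -1.80 and -0.40, and the spread between cultures is unknown with 1 library per group.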

Other observations

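Lists of the neighbouring stress and translation pathways were read in the same way. Of 21 measured target genes of XBP1 and ATF6, which serve the other arms of the unfolded protein response, 3 were lower (14.3%, beside 21.4% of all genes) and 1 higher (4.76%, beside 13.8%) in the library labelled RUNX1 than in the control, with a median log2 ratio of -0.04, beside -0.13 for all genes. The chaperones HSP90B1 (213 CPM in the library labelled RUNX1, 353 CPM in the control, -0.73, -0.76 to -0.70), CALR (-0.70, -0.73 to -0.68) and CANX (-0.51, -0.55 to -0.47) were lower, and DNAJB9, a cochaperone (17.5 CPM in the library labelled RUNX1, 11.7 CPM in the control, 0.59, 0.47 to 0.71), was higher. Of 19 measured translation factors 6 were lower (31.6%, beside 21.4% of all genes) and 0 higher, with a median of -0.27. EIF5B, which joins the ribosomal subunits, had 152 CPM in the library labelled RUNX1 and 311 CPM in the control (-1.03, -1.06 to -0.999), and EIF1AX, EIF4G1 and EIF3B had ratios of -0.96, -0.82 and -0.74. Within S or G2/M cells 2 of 21 XBP1 and ATF6 target genes (9.52%) and 5 of 19 translation factors (26.3%) were lower, beside 12.8% of all genes. Their medians there were -0.06 and -0.21, beside -0.14 for all genes.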
